A study of Caenorhabditis elegans with 6 samples.

Results

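The fbxa genes encode F-box A proteins, a large family of Caenorhabditis elegans. Members were taken as the genes whose symbol is fbxa followed by a number, and 160 of the 25212 genes in the deposited table met that rule. All 160 are annotated as mRNA genes, and the table describes 156 of them simply as an F-box A protein. RefSeq lists 222 fbxa symbols for the build WBcel235, of which 170 are protein-coding and 52 are pseudogenes. All 160 members matched it by gene ID, and the other entries were not analysed here.

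F-box proteins are the substrate-binding subunits of SCF ubiquitin ligases. In such a ligase a Skp1-related protein (SKR in worms) holds the F-box, a cullin forms the scaffold and a RING protein (RBX) recruits the ubiquitin-loaded enzyme. Worms have far more F-box genes than most animals, and many fbxa proteins carry an FTH domain, named after FOG-2, behind the F-box. Most single fbxa genes have no assigned substrate. FBXA-75 and FBXA-158 are known as partners of the cullin CUL-6 and of SKR-3, SKR-4 and SKR-5 in the intracellular pathogen response, a program turned on by viruses and microsporidia.

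RNA came from whole animals of the wild-type strain N2, in 3 libraries of worms given 100 µM aspartame (ASP), a dipeptide sweetener, and 3 of control worms (Control). Immunity to the bacterial pathogen Pseudomonas aeruginosa is the topic of the series. Exposure of the sequenced worms to it, their age and their stage are not stated in the labels. Nothing states that same-group libraries came from separate cultures. The p-values therefore reflect only library-to-library spread, possibly technical. Libraries are named by group and by the replicate number, 1 to 3, in their titles, and what a number stands for is not given.

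Total counts ran from 53558562 to 63581942 per library, and rRNA genes took 3.24% to 7.19% of them. The libraries numbered 3 stood apart in both groups, and numbers 1 and 2 differed from each other too. Summed FPKM (fragments scaled to transcript length and library depth) of 24 molting and cuticle genes was 4881 (ASP 3) and 4683 (Control 3). It was 1753 and 2003 in ASP 2 and Control 2, and 1171 and 1269 in ASP 1 and Control 1. The 6 vitellogenin genes, which encode yolk proteins, summed to 922 and 999 FPKM in ASP 3 and Control 3, against 2547 to 3108 elsewhere. The main results on the family are therefore also given without them or within each number.

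The fbxa genes were expressed at low levels, with a median of 1.15 FPKM over the 6-library means of the 160 members. The median over all 18596 mRNA genes was 6.38 FPKM. Only 7 members had a mean of at least 10 FPKM, 20 lay between 5 and 10, and 56 between 1 and 5. Another 49 lay between 0.1 and 1 FPKM, and 28 below 0.1. All 160 were above 0 in at least 1 library and 119 were above 0 in all 6. The test took genes averaging 1 FPKM or more, which kept 83 members (51.9%) against 72.9% of all mRNA genes. The last members kept were fbxa-85 (mean 1.10 FPKM) and fbxa-2 (1.012), and the first left out were fbxa-143 (0.993) and fbxa-5 (0.969).

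**Figure D1:**
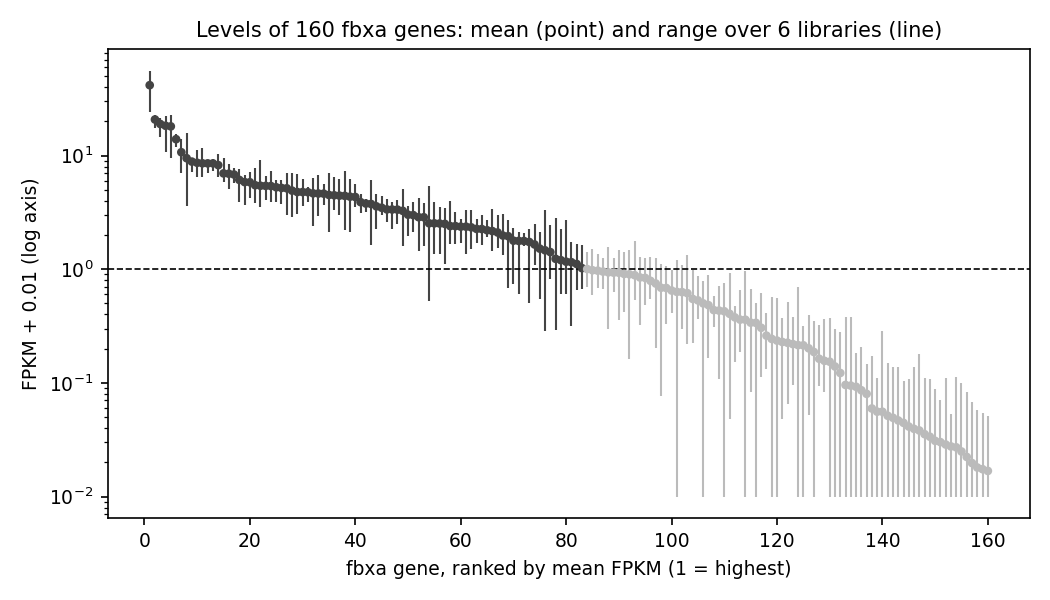
Level of each of the 160 fbxa genes, ranked by mean FPKM on the horizontal axis, with FPKM + 0.01 on a logarithmic vertical axis. Points are means and lines the range over 6 libraries, the dashed line marks a mean of 1 FPKM, and the 83 tested genes in dark grey lie above the 77 untested ones in light grey.

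The 10 most abundant members held 36.5% of the family's summed FPKM, and fbxa-215 alone held 8.97%. fbxa-215 (178336, IV 13665364 to 13666909), a gene of 5 exons for a protein of 392 residues in Ensembl's annotation, had 56.0, 43.0 and 24.4 FPKM in ASP 1, 2 and 3. It had 54.3, 45.9 and 26.1 FPKM in their Control counterparts. The groups overlapped fully, and both libraries numbered 3 were the lowest. Its mean was about the same in either group, 41.1 ± 15.9 FPKM in the ASP libraries and 42.1 ± 14.5 in the Control libraries (SD, n = 3).

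fbxa-101 (173165, I 12958640 to 12959932) came next, with 21.8, 17.5 and 22.9 FPKM in ASP 1 to 3 and 21.9, 22.3 and 18.1 in the Control libraries 1 to 3. No number was lowest in both groups. It lies 380 bases from fbxa-140 on the same strand, which had a level of only 3.92 to 5.30 FPKM over the 6 libraries. fbxa-210 (180187, V 18125375 to 18127205) had 21.5, 19.5 and 19.2 FPKM in the ASP libraries and 20.3, 18.8 and 14.6 in the Control libraries. fbxa-72 (185173, V 674886 to 676753) had 20.7, 20.7 and 13.1 FPKM in the ASP libraries and 21.9, 22.4 and 10.8 in the Control libraries. Both were lowest in Control 3, and fbxa-72 was low in ASP 3 too.

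fbxa-60 (188448, III 944733 to 946300), which the deposited table annotates with the term innate immune response, had 23.0, 19.1 and 15.4 FPKM in the ASP libraries and 20.99, 20.4 and 9.54 in the Control libraries. Its neighbour fbxa-59 (188447, III 939941 to 943476), annotated alike, had 6.87, 11.1 and 9.52 FPKM in the ASP libraries and 6.91, 10.9 and 6.45 in the Control libraries. Number 1 was among the lowest for fbxa-59 and the highest for fbxa-60, so these adjacent genes did not share a pattern over the libraries. fbxa-114, fbxa-206, fbxa-74 and fbxa-156 completed the 10, with group means from 8.08 (fbxa-74, Control) to 14.1 FPKM (fbxa-114, ASP). Across all 10, the difference between the group means was smaller than the larger of the group SDs.

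**Figure D2:**
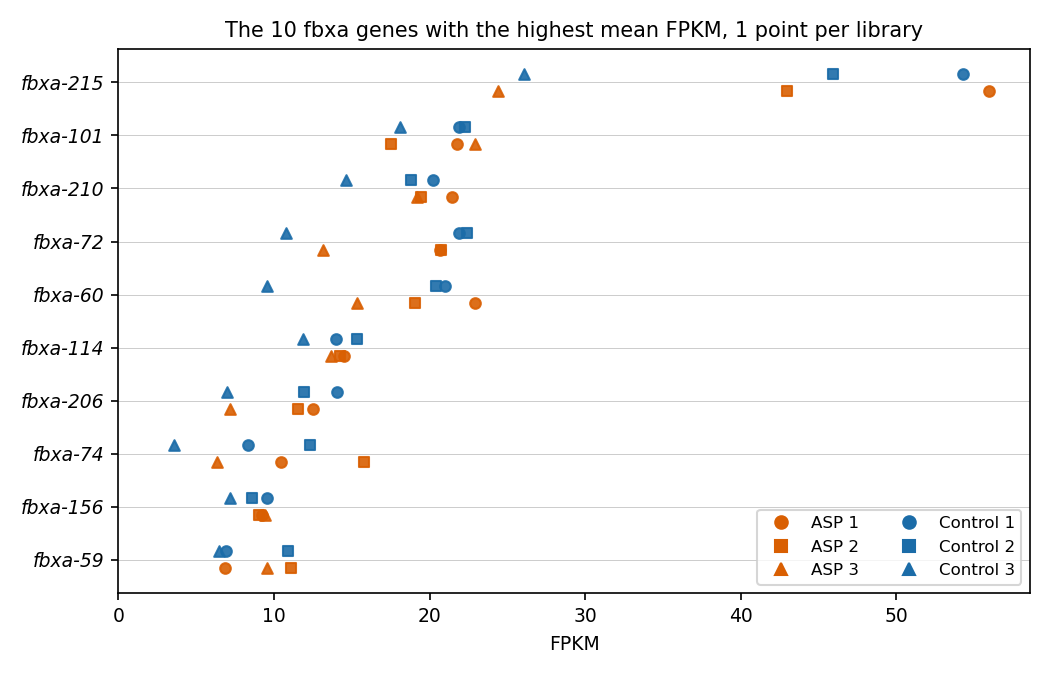
FPKM of the 10 most abundant fbxa genes, 1 point per library, in ASP (orange) and Control (blue) with the replicate number as the marker shape. For fbxa-215, fbxa-72, fbxa-60, fbxa-206 and fbxa-74 both triangles (number 3) lie below all other points, while the colours intermix.

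Many members sit in tandem arrays, and most of the autosomal members lie toward the chromosome ends. Chromosome V holds 67 of them and chromosome III 56, or 41.9% and 35.0% of the family, against 23.0% and 13.8% of all mRNA genes. The others are on II and X (13 each), I (6) and IV (5). Of the 147 autosomal members, 84.4% lie in the outer 25% at either end of their chromosome, against 42.2% of autosomal mRNA genes. Next to each other, with no other mRNA gene starting in between, stand 95 members in 31 runs. Ensembl models exist for 159 members, with a median protein of 314 residues and 4 exons.

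Levels differed between arrays and within them. Members no more than 50 kb apart were grouped, which gave 11 groups of at least 4 genes. The largest, 26 members over 145 kb (III 1239048 to 1384252), had 17 tested members and a median of 2.62 FPKM. A group of 8 nearer the end of the chromosome (III 933422 to 963833) had all 8 members tested and a median of 4.55 FPKM. Another group, of 14 members (III 2219708 to 2314035), had a median of 0.409 FPKM and only 3 tested members. On V, 4 members (V 18082402 to 18128888), among them fbxa-210, had the highest median, 8.53 FPKM. The group of 6 on V that starts with fbxa-136 (V 17521035 to 17585876) had 0.0292 FPKM and no tested member. The longest run, 11 genes from fbxa-151 to fbxa-79 (III 1265623 to 1308294), spanned means of 0.0281 to 5.81 FPKM.

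Related F-box genes and genes for known or possible partners lie within or beside some arrays. fog-2, an F-box gene required for hermaphrodites to make sperm, and its close relative ftr-1 lie side by side on V between fbxa-115 and fbxa-114 (V 20190535 to 20202874). skr-5 (V 17347902 to 17348723) directly follows fbxa-189, within a group of 4 members. skr-3 (V 16121824 to 16122648) has fbxa-143, fbxa-142 and fbxa-144 as its next 3 mRNA genes. Neighbouring members can share sequence, and how reads that match several genes were counted is not given in the sources used here, so levels of single members are uncertain to that extent. In addition, 25 members, 5 of them tested, overlap another mRNA gene, and whether strand was used in counting is not given.

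The comparison of ASP with Control asks whether aspartame changes the level of these genes. No member passed the threshold, an adjusted p under 0.05 in edgeR's quasi-likelihood test (0 of 83), and percent called among all 13790 tested genes was 0%. No member had an unadjusted p under 0.05, against 0.45% of all tested genes. DESeq2 and limma on log2(FPKM + 1) also called 0 members, each with 1 at an unadjusted p under 0.05. With the replicate number as a block the count was 0 too, with 6 at an unadjusted p under 0.05 against 2.68% of all genes. Those 6 were fbxa-29, fbxa-74, fbxa-6, fbxa-127 and fbxa-55, higher in ASP, and fbxa-170, lower in ASP. Each had an adjusted p of 0.997 in that edgeR fit. Without the block, the interval of the log2 difference (95%) stayed within 1 to either side for 50 of the 83 members. A change of that size is outside the interval for those genes in that fit. The median SE over members was 0.31 without the block and 0.20 with it, so the 50 holds for the unblocked fit only.

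The fitted log2 differences leaned to ASP, with 60 members above 0 and 23 below. Their median was 0.11, against 0.00 for all tested genes, of which 50% were above 0. This lean came with 1 pair of libraries. On the scale of log2(FPKM + 1), the median over members was −0.03 between ASP 1 and Control 1, −0.04 between ASP 2 and Control 2, and 0.28 between ASP 3 and Control 3. The counts above 0 were 38, 40 and 72 of 83, against 54.8%, 42.8% and 60.8% of all tested genes, whose medians were 0.02, −0.03 and 0.06. Without Control 3 the family's median in edgeR was −0.01, in a fit with no block that kept ASP 3. Without both libraries numbered 3, with the block, it was 0.01. With any other single library left out it was between 0.03 and 0.17, again with no block. Leaving out 1 library makes the numbers unequal between the groups, so these medians also carry differences between numbers.

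**Figure D3:**
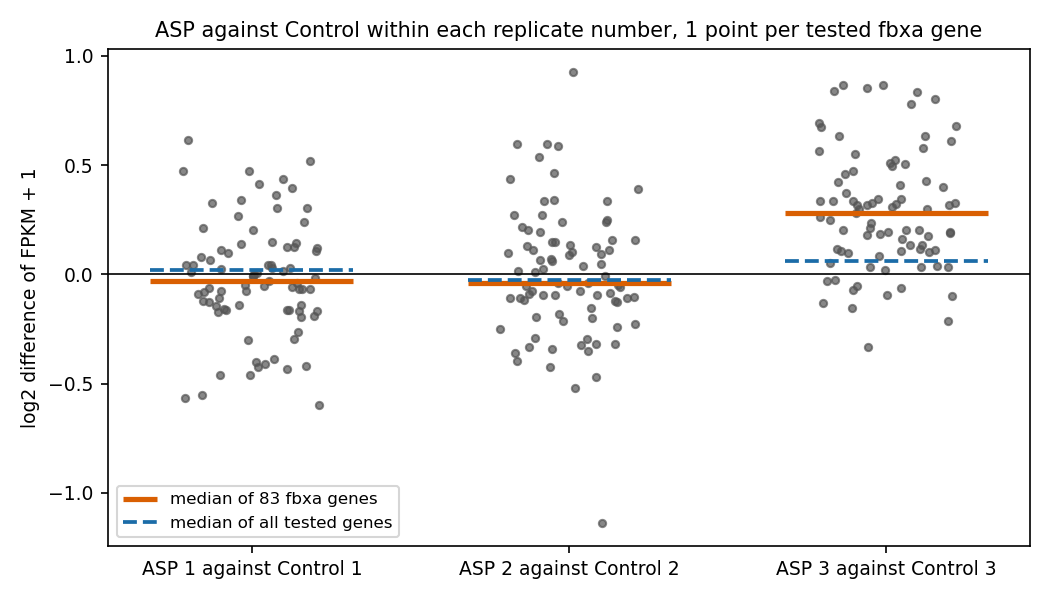
Difference between ASP and Control within each replicate number, as log2 of FPKM + 1, with 1 point per tested fbxa gene, the median over members as a solid line and that over all tested genes as a dashed line. The members centre on −0.03 and −0.04 in the first 2 pairs and on 0.28 in the pair numbered 3, where 72 of 83 are above 0.

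Control 3 was the library with the lowest family level. Summed over the 160 members, FPKM was 485.3, 509.5 and 443.4 in the ASP libraries 1, 2 and 3, and 484.4, 515.4 and 346.3 in the Control libraries 1, 2 and 3. Both groups were thus alike in numbers 1 and 2, and number 3 was the lowest in either, more so in Control. ASP 3 stood at 89.1% of the mean of ASP 1 and ASP 2, and Control 3 at 69.3% of that of Control 1 and Control 2. The group means, 479.4 ± 33.4 FPKM in the ASP libraries and 448.7 ± 90.0 in the Control libraries (SD, n = 3), differed by less than the spread between libraries. The 77 untested members together were also lowest in number 3, with 25.8, 30.3 and 21.6 FPKM in the ASP libraries and 29.2, 32.5 and 15.6 in the Control libraries. ASP 3 and Control 3 also differed in total counts (53926593 and 63581942), in the rRNA share of counts (7.19% and 5.26%) and in the summed FPKM of 69 sperm genes (11629 and 16414). The sperm genes summed to 15585 to 17582 FPKM in the other 4 libraries, and none of the 69 was at 0 in any library. Of the 24 molting and cuticle genes, 19 were higher in ASP 3 than in Control 3 (median difference 0.40 in log2(FPKM + 1)), against 5 and 2 in pairs 1 and 2 (medians −0.32 and −0.34). The part of these in the family's level was not tested.

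Of the members higher in ASP, 4 had groups that did not overlap, fbxa-29, fbxa-6, fbxa-90 and fbxa-107, against 2.28% of all tested genes. The groups of no member were separated in the other direction, against 1.1% of all tested genes. fbxa-29 (191056, III 1272474 to 1273700) had 4.72, 7.32 and 4.597 FPKM in ASP 1 to 3 and 3.13, 4.50 and 2.21 in the Control libraries 1 to 3. ASP was higher in each pair, though ASP 3 exceeded Control 2 only narrowly. The log2 difference was 0.75 (SE 0.31, interval −0.01 to 1.51) and did not pass (adjusted p 0.9999 in edgeR). With the block it was 0.76 (SE 0.18, unadjusted p 0.00302 in edgeR, adjusted p 0.997).

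fbxa-6 (183881, III 1219 to 3097), near the left end of the chromosome, had 4.38, 5.17 and 6.24 FPKM in the ASP libraries and 2.98, 3.70 and 4.11 in the Control libraries. Each ASP library was above all Control libraries, and the log2 difference of 0.53 (SE 0.25) did not pass. With the block it was 0.53 (SE 0.16, unadjusted p 0.0097 in edgeR, adjusted p 0.997). fbxa-90 (190842, V 16966814 to 16968586) had 1.95, 2.28 and 2.29 FPKM in the ASP libraries and 1.73, 0.726 and 1.66 in the Control libraries (log2 0.63, SE 0.39). fbxa-55 (188445, III 933422 to 936085) was higher in ASP in each pair, with 5.24, 6.98 and 3.72 FPKM against 4.41, 4.50 and 2.0997 (log2 0.53, SE 0.35). Its value with the block was 0.55 (SE 0.18, unadjusted p 0.0170 in edgeR, adjusted p 0.997). fbxa-13 (189517, III 1703483 to 1705899) was at 2.79 ± 0.445 FPKM in the ASP libraries and 1.93 ± 0.751 in the Control libraries (log2 0.53, SE 0.31). None of the 3 passed. The highest fitted value in the family was 0.81 (SE 0.80), of fbxa-127, which was higher in ASP in each pair and did not pass either. With the block its value was 0.91 (SE 0.29, unadjusted p 0.0119 in edgeR, adjusted p 0.997). Over the family, 15 members (18.1%) were higher in ASP in all 3 pairs, against 12.8% of all tested genes, and 3 were lower in all 3, against 8.88%.

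Among members lower in ASP, the 5 with the lowest p were not called. fbxa-140 (173166, I 12960313 to 12961619) had 4.40 ± 0.708 FPKM in the ASP libraries and 5.10 ± 0.212 in the Control libraries (log2 −0.23, SE 0.18). fbxa-170 (183273, X 1676205 to 1678121) had the lowest fitted value, −0.86 (SE 0.81), with 1.503, 0.820 and 0.284 FPKM in the ASP libraries and 2.79, 1.61 and 0.342 in the Control libraries. It was lower in ASP in each pair, yet its level varied more over the numbers than between the groups. With the block its log2 difference was −0.77 (SE 0.26, unadjusted p 0.0177 in edgeR, adjusted p 0.997). fbxa-10 stood at −0.41 (SE 0.41), fbxa-4 at −0.20 (SE 0.27) and fbxa-30 at −0.63 (SE 0.61). fbxa-30 (191058, III 1274425 to 1275613) lies 724 bases from fbxa-29 and leaned the other way, with 1.41, 0.670 and 0.629 FPKM in the ASP libraries and 0.951, 2.68 and 0.592 in the Control libraries. Its direction rested on Control 2, without which its log2 difference was 0.18.

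The deposited table gives the term innate immune response to 6 members, fbxa-59, fbxa-60, fbxa-151, fbxa-30, fbxa-105 and fbxa-150, a group chosen after the values were seen. All 6 were tested and none passed in ASP against Control. fbxa-151 had 1.44, 3.97 and 3.43 FPKM in the ASP libraries and 2.62, 4.24 and 1.46 in the Control libraries. fbxa-105 had 4.19, 5.78 and 4.73 FPKM in the ASP libraries and 4.80, 7.06 and 2.87 in the Control libraries. For both, ASP was lower than Control in pairs 1 and 2 and higher in pair 3. fbxa-59, fbxa-60, fbxa-30 and fbxa-150 were higher in pair 3 too, but none was lower in both pairs 1 and 2. fbxa-150 differed by 0.04, −0.47 and 0.32 in log2(FPKM + 1) in pairs 1, 2 and 3.

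Neither member known from the intracellular pathogen response reached a mean of 1 FPKM. fbxa-75 (191032, III 1303714 to 1305461) was listed at 0 in 5 libraries and at 0.168 FPKM in Control 2. Its neighbour fbxa-79, 254 bases away, had 2.095 to 6.26 FPKM over the same libraries. fbxa-158 (182402, II 1619814 to 1621280) had 0.815, 1.23 and 0.369 FPKM in the ASP libraries and 1.34, 1.45 and 0.152 in the Control libraries. It was the highest of a run of 5 members on II, none of which reached a mean of 1 FPKM. Its counts were 67, 107 and 31 in ASP and 111, 121 and 15 in Control. Neither gene was tested, and number 3 was the lowest for fbxa-158 in both groups. cul-6, their cullin, had 4.71 ± 0.723 FPKM in the ASP libraries and 4.30 ± 1.18 in the Control libraries. skr-3 had 92.5 ± 6.26 and 87.4 ± 16.7 FPKM, skr-4 25.8 ± 6.44 and 24.5 ± 7.72, and skr-5 5.11 ± 1.16 and 4.33 ± 1.94. Of 18 genes of this response found in the table, 10 were tested and 0 passed, with 9 above 0 and 1 below (median log2 0.07). These 10 include skr-4 and skr-5, already given above, and were not split by their role in the response. On the scale of log2(FPKM + 1), the median of these 10 was near 0 in pairs 1 and 2 (0.01 and −0.01). There 6 and 4 of 10 were above 0. In pair 3 it was 0.30, with 9 of 10 above 0. The fbxa median was likewise near 0 in pairs 1 and 2 and above 0 in pair 3.

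Of the general SCF subunits, skr-1 and rbx-1 had higher levels per length (FPKM) than any member, and the order of cul-1 and fbxa-215 differed between numbers. cul-1 was below fbxa-215 in numbers 1 and 2 of both groups and above it in ASP 3 (33.5 against 24.4 FPKM) and Control 3 (32.8 against 26.1). skr-1, the main Skp1 protein of the worm, had 198 ± 7.65 FPKM in the ASP libraries and 197 ± 3.87 in the Control libraries. The RING subunit gene rbx-1 had 146 ± 15.5 and 148 ± 9.88 FPKM, and the scaffold gene cul-1 33.8 ± 0.839 and 33.4 ± 2.08 FPKM. None of the 15 tested skr genes, 8 cullin and RING genes or 12 genes of neddylation and cullin exchange passed in ASP against Control, with medians of −0.02, −0.01 and 0.00 in log2. The other F-box families were also without a call, 0 of 19 tested fbxc genes (median 0.01) and 0 of 2 tested fbxb genes. Of 10 other F-box genes, 9 were above 0 with a median of 0.05 and 0 passed. On the scale of log2(FPKM + 1), 9, 4 and 9 of them were above 0 in pairs 1, 2 and 3 (medians 0.14, −0.07 and 0.16). fog-2 had 14.2 ± 4.38 FPKM in the ASP libraries and 13.7 ± 3.99 in the Control libraries, and ftr-1 9.31 ± 1.39 and 8.69 ± 1.55.

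**Figure D4:**
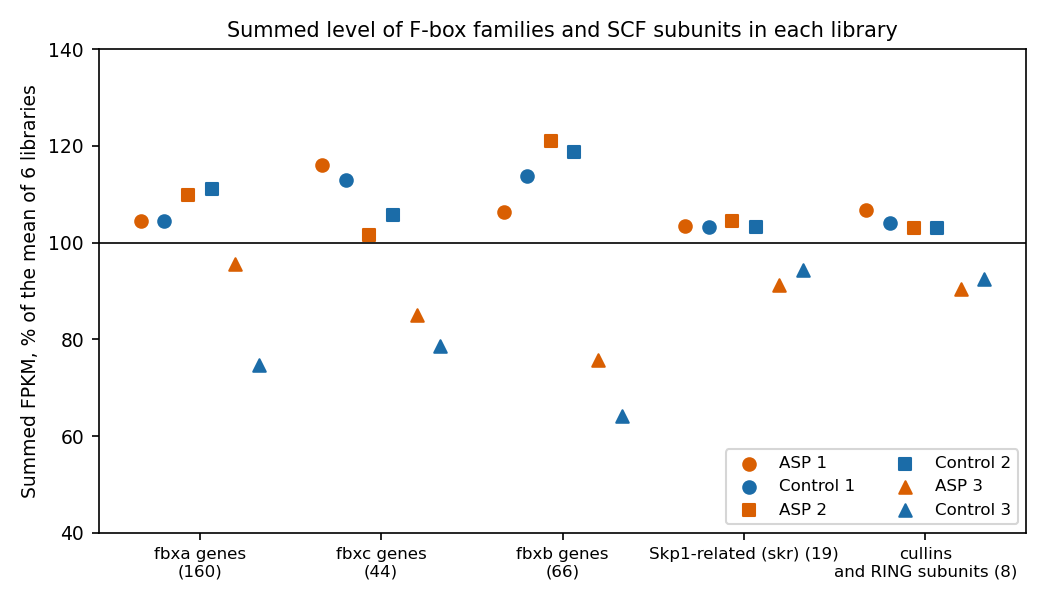
Summed FPKM of the fbxa, fbxc and fbxb genes, the Skp1-related genes and the cullin and RING genes in each library, as a percent of the mean of the 6 libraries for that set (vertical axis from 40 to 140). Number 3 (triangles) is below 100% in each set, and the gap between ASP 3 (95.5%) and Control 3 (74.6%) is the widest for the fbxa genes.

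The libraries numbered 3 differed from those numbered 2 by many genes, and the family took part in this mostly as genes that fell. With group as a term in edgeR, 18 members fell and 2 rose in number 3 against number 2. That is 21.7% and 2.41% of the 83 tested members, against 12.2% and 12.1% of all tested genes called in these directions (24.3% in either). The median log2 difference was −0.32 over members, of which 23 were above 0 and 60 below, and 0.00 over all tested genes, of which 49.6% were above 0. On the scale of log2(FPKM + 1), the members' median was −0.15 from ASP 2 to ASP 3, with 51 of 83 below 0. It was −0.46 from Control 2 to Control 3, with 70 of 83 below 0, while that of all tested genes was −0.04 and −0.13. The same direction thus appeared in both groups, by more in Control. The call count was 13 without Control 3, 6 without ASP 2 and 5 without Control 2. These are 15.7%, 7.23% and 6.02% of the members, and the same fits called 23.3%, 10.2% and 10.7% of all tested genes. Molting and cuticle genes rose in this comparison (22 of 24, 1 fell), vitellogenins (6 of 6) and oocyte and eggshell genes (13 of 13) fell, and none of these genes was at 0 in any library. Their part in the members' levels was not tested, and in whole animals fewer cells of a type and less RNA per cell cannot be told apart.

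fbxa-127 (3564877, V 16728731 to 16729960) fell the most, with 3.29 and 2.11 FPKM in ASP 2 and Control 2 and 0.695 and 0.277 in ASP 3 and Control 3. Its log2 difference was −2.43 (SE 0.36, adjusted p 0.00215 in edgeR), and it passed under all 13 alternatives. fbxa-170 went from 0.820 and 1.61 FPKM to 0.284 and 0.342 (log2 −1.79, SE 0.34). fbxa-38 (183323, III 2224672 to 2227198) went from 2.71 and 2.38 FPKM to 0.796 and 0.674 (log2 −1.69, SE 0.29). The libraries of number 3 were below all other libraries for these 3 genes. fbxa-38 was the only called member of its group of 14 on III in this comparison.

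fbxa-74 (189515, III 1696952 to 1698986) had the smallest p among the members in number 3 against number 2. It had 10.5, 15.8 and 6.32 FPKM in ASP 1 to 3 and 8.30, 12.3 and 3.59 in the Control libraries 1 to 3. Number 2 was the highest and number 3 the lowest in both groups, and ASP was above Control in each number. Its log2 difference in number 3 against number 2 was −1.45 (SE 0.15, adjusted p 0.000324 in edgeR), and it passed under all 13 alternatives. fbxa-99 (−1.47, SE 0.35), fbxa-69 (−1.38, SE 0.26), fbxa-79 (−1.30, SE 0.24) and fbxa-10 (−1.06, SE 0.30) fell as well. fbxa-10 lost its call under 7 of 13 alternatives, fbxa-99 under 4, fbxa-79 under 3 and fbxa-69 under 2. fbxa-99 overlaps the mRNA gene oac-20 on the other strand by 95 bases. fbxa-79, next to fbxa-75, had 6.26, 5.96 and 2.095 FPKM in the ASP libraries and 4.23, 5.35 and 2.15 in the Control libraries.

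Of the 10 most abundant members, 5 fell, fbxa-74 among them. fbxa-215 differed by −0.72 (SE 0.09, adjusted p 0.000794 in edgeR) and passed under all 13 alternatives. fbxa-72 differed by −0.76 (SE 0.12), fbxa-206 by −0.64 (SE 0.14) and fbxa-60 by −0.60 (SE 0.16). The members that fell include 10 of the 35 tested on III, 5 of 34 on V, both tested on IV and 1 of 3 on X. In the largest group on III, 5 of 17 tested members fell, 0 rose and the median was −0.59. In the group of 8 on III that holds fbxa-60, 3 fell and the median was −0.49. The 4 members around fbxa-210 on V, by contrast, had a median of −0.07 and no call.

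The 2 members that rose were fbxa-147 and fbxa-216. fbxa-147 (187693, V 14716499 to 14717425) had 0.516, 1.76 and 5.39 FPKM in ASP 1 to 3 and 1.004, 2.46 and 4.03 in the Control libraries 1 to 3. The 3 numbers were fully separated for it, with log2 1.28 (SE 0.36, adjusted p 0.0347 in edgeR) in number 3 against number 2. fbxa-216 (190001, I 11901660 to 11903310) had 4.44, 5.56 and 7.70 FPKM in the ASP libraries and 4.69, 3.85 and 6.61 in the Control libraries (log2 0.71, SE 0.20). Each lost its call under 6 of 13 alternatives.

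**Figure D5:**
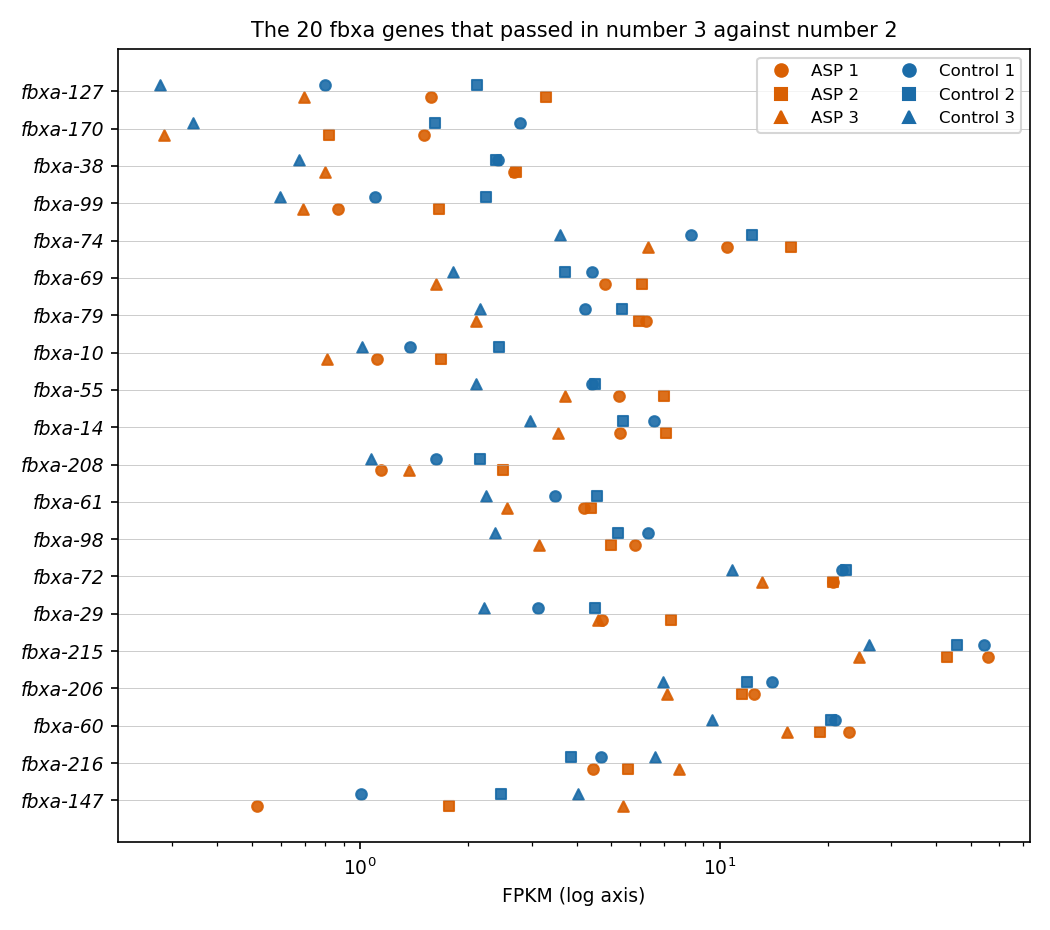
FPKM (logarithmic axis) of the 20 fbxa genes that passed in number 3 against number 2, ordered by log2 difference, 1 point per library with ASP in orange, Control in blue and the number as marker shape. Within each colour the triangle (number 3) lies below the number 2 marker for 18 genes and above it for fbxa-216 and fbxa-147, and fbxa-29 is the gene whose numbers 2 and 3 overlap.

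Number 3 against number 1 gave a more even split. Here 14 members fell (16.9% of those tested) and 9 rose (10.8%), against 19.1% and 18.3% of all tested genes (37.5% in either direction). The median was −0.13 over members, −0.01 over all tested genes, and 0.06 over members without Control 3. The count was 15 (18.1%) without ASP 1, where 24.6% of all tested genes were called. At an unadjusted p under 0.05 there were 30 members, against 47.2% of all tested genes. The FPKM of the numbers did not overlap for 14 members higher in number 3 and 35 lower, against 27.2% and 44% of all tested genes. This comparison shares the number 3 libraries with the one before, and 15 members were called in both, 75% of the first list and 65.2% of the second.

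fbxa-170 fell the most (−2.61, SE 0.34, adjusted p 0.000619 in edgeR), from 1.503 and 2.79 FPKM in ASP 1 and Control 1. fbxa-38 (−1.68, SE 0.29), fbxa-69 (−1.31, SE 0.26), fbxa-127 (−1.19, SE 0.37), fbxa-79 (−1.18, SE 0.25), fbxa-98 (−1.04, SE 0.22), fbxa-215 (−1.03, SE 0.09) and fbxa-74 (−0.86, SE 0.15) fell too. fbxa-98 (182421, IV 13633407 to 13635223) and fbxa-215 lie within 50 kb of each other and both went down, fbxa-98 from 5.80 and 6.32 FPKM to 3.15 and 2.37. The abundant fbxa-206 (−0.81, SE 0.14), fbxa-60 (−0.74, SE 0.16) and fbxa-72 (−0.74, SE 0.12) also fell. fbxa-127 lost its call under 10 of 13 alternatives, the others named here under at most 1.

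Members that rose in number 3 against number 1 were fbxa-147 (2.76, SE 0.39, adjusted p 0.00102 in edgeR), fbxa-115, fbxa-141, fbxa-183, fbxa-155, fbxa-27, fbxa-216, fbxa-202 and fbxa-6. fbxa-115 (190970, V 20190535 to 20192152) had 2.25, 3.04 and 5.02 FPKM in the ASP libraries and 1.59, 3.34 and 4.29 in the Control libraries (log2 1.38, SE 0.26). It lies near fog-2, which fell in the same comparison (−0.77, SE 0.13), and near fbxa-114, which was not called. fbxa-155 (176414, III 10007966 to 10010217), away from the arrays, had 2.95, 3.88 and 6.78 FPKM in the ASP libraries and 3.35, 5.09 and 5.71 in the Control libraries (log2 1.09, SE 0.22). fbxa-202 (189038, V 6327280 to 6328865) had 7.18, 8.58 and 10.4 FPKM and 6.41, 7.59 and 9.20 (log2 0.63, SE 0.15). fbxa-141 (1.38, SE 0.45) lost its call under 8 of 13 alternatives and fbxa-27 (0.85, SE 0.28) under 10. fbxa-27 overlaps the mRNA gene Y82E9BL.6 on the other strand by 42 bases.

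Number 2 against number 1 gave no call among the members, with 0 of 83 in edgeR, and 3.84% of all tested genes called. At an unadjusted p under 0.05 there were 20 members (24.1%), against 18% of all tested genes. DESeq2 called 5 members, all higher in number 2, which is 6.02% of them against 6.35% of all tested genes in that fit (edgeR called 2.7% of all tested genes in that direction), and limma on log2(FPKM + 1) called 0. The count in edgeR was 10 without ASP 3, 11 without Control 3 and 6 without Control 1. The same fits called 11.2%, 11% and 4.59% of all tested genes, against 12%, 13.3% and 7.23% of the members. Of the 83, 60 were above 0 and 23 below (median 0.13, against 0.00 for all tested genes). In the largest group on III, 16 of 17 tested members were above 0 (median 0.27). Of the 24 molting and cuticle genes, 21 were called higher in number 2 (median log2 1.185) and 0 lower. All 13 oocyte and eggshell genes were below 0, with 6 called, and 0 of the 6 vitellogenins were called. Their part in the members' levels was not tested.

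Like the fbxa members, the other F-box genes and SCF subunits leaned down in number 3 against number 2, though few were called. Medians were −0.36 for skr genes (12 of 15 below 0), −0.26 for fbxc (12 of 19) and −0.71 for fbxb (2 of 2). The 10 other F-box genes had −0.12 (7 below 0). Cullin and RING genes had −0.08 (7 of 8 below 0) and neddylation genes −0.15 (10 of 12). In number 3 against number 2, 2 of 19 tested fbxc genes fell (fbxc-32 at −1.47, SE 0.32, and fbxc-50 at −0.79, SE 0.14). Of the 15 skr genes, 3 fell (skr-7 at −2.60, SE 0.36, skr-14 at −2.36, SE 0.39, and skr-4 at −0.71, SE 0.12), and 0 rose. None of the 8 cullin and RING genes and none of the 12 neddylation genes was called. dre-1, an F-box gene that times the molt and the larval-to-adult switch, rose (0.74, SE 0.10), while fsn-1, an F-box gene of synapse growth, fell (−0.30, SE 0.09). In number 3 against number 1, 6 of 19 fbxc genes fell and 1 rose, 5 of 15 skr genes fell, and 4 of the 10 other F-box genes fell while dre-1 rose (1.14, SE 0.10).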

How the data were processed

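Poly(A)-selected RNA of 6 libraries (3 ASP, 3 Control) was analysed. Per the file headers, the authors deposited estimated counts and FPKM values for each library. The counts were already whole, and their rounding to whole numbers changed nothing. Aligner, counter and strandedness: not given in the sources used here. CASAVA 1.4, mm9 and mm10 appear in the submitters' processing notes. The chromosomes named in the file belong to the worm assembly WBcel235. Ensembl's annotation of that build gave the same start and end for 149 members. Sequences of the members were not used here.

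Genes averaging 1 FPKM or more were fitted together by edgeR 4.0.16 (quasi-likelihood, TMM, R 4.3.3), using counts; p-values were adjusted by Benjamini-Hochberg over all of them and a threshold of 0.05. SE and 95% intervals come from that fit. Alternatives were DESeq2 1.42.0, limma 3.58.1 on log2(FPKM + 1) or log2(FPKM + 0.1), RLE normalization, other filters, another model term and each library left out. The test code was also run on simulated counts carrying known changes. Which comparisons that run covered, and how many changes were recovered or falsely called, are not given here. No result in the text rests on it. Depth is given as total counts.

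Same-numbered libraries deviated together from their group means (Pearson correlation over all tested genes 0.769, 0.482 and 0.791 for numbers 1, 2 and 3), so the numbers were read as pairing the libraries. ASP against Control was fitted without the block, which changed no call, and numbers were compared with group as a term. Each number holds only 2 libraries, and these differ in group. The p-values between numbers therefore rest on how far the groups disagree over the numbers, not on replicates of a number within a group.

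The members and lists were chosen with earlier results of these data known. The text names the 10 most abundant members and the 5 with the smallest p per direction in ASP against Control. It names up to 8 called members per direction with the largest difference between numbers, and the abundant members among the called ones. Up to 4 called genes per list and a fixed set of partners and related F-box genes are named too. Members named outside these are counts of 5 or fewer, neighbours, or said to be chosen later. Of the list entries, 1 other F-box gene, 1 neddylation gene and 2 pathogen response genes were not analysed here.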

Additional observations from a re-analysis of the deposited data

How the results depend on the processing

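In ASP against Control, 0 members were called under each alternative, with the replicate block, and in the added setting (chosen after the data were seen) without the libraries numbered 3. Of the 10 members named for their small p, 9 kept their direction under all 14 alternatives, and fbxa-30 ran from −1.07 to 0.18 with 1 library left out, turning to 0.18 without Control 2. The family's median ran from −0.01 to 0.17 over the fits with 1 library left out, and was 0.10 with the replicate block.

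In number 2 against number 1 the count of called members was 5 with DESeq2, 1 without the group term and 0 to 11 with 1 library left out. The members' median there was 0.140 with RLE normalization, 0.140 with DESeq2, 0.176 with a filter of 0.1 FPKM, 0.199 with no filter, 0.109 in limma on log2(FPKM + 1), and 0.011 to 0.247 with 1 library left out. In number 3 against number 2 the count was 6 with no filter and 5 to 27 with 1 library left out. In number 3 against number 1 it was 13 with no filter and 15 to 24. With no filter all 160 members and many genes at or near 0 enter the fit. The counts of called members in this paragraph describe how calls moved between fits. Where the share of all tested genes called in the same fit is not given above, they are not read as results about the family. Of the named calls between numbers, 39 fits lost the call and 143 kept it in number 3 against number 2, 40 lost and 207 kept it in number 3 against number 1, and none changed direction. The 77 members below a mean of 1 FPKM were described by level only, and 28 of them were below 0.1 FPKM.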
